A study of Mus musculus with 7 samples.

Results

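The genes described here encode the proteasome, the protease complex that degrades ubiquitin-tagged proteins. They were chosen by symbol as every gene on the array whose name starts with Psma to Psmg and a number, apart from the immune subunits Psmb8, Psmb9 and Psmb10. This gave 46 of the 22180 genes with a feature of their own on the array, each read from the feature with the highest mean signal. Psma4 was not among them, because its features are listed under a second symbol as well. Psmc3ip, a factor of meiotic recombination, and Psme3ip1, a binding partner of Psme3, carry a matching symbol without being subunits, and 44 members encode subunits, regulators or assembly factors. In skeletal muscle the proteasome clears myofibrillar and regulatory proteins, and its subunit genes are known to be induced together in several forms of muscle wasting. Its 20S core is a barrel of alpha and beta rings, of which the beta rings hold the proteolytic sites. A 19S cap, with a base of ATPases that unfold the substrate and non-ATPase subunits that bind and strip ubiquitin, opens the barrel, and other activators can dock in its place.

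Gene arrays (GeneChip Mouse Gene 2.0 ST) measured RNA of whole skeletal muscle from C57BL/6 mice, to ask how aging and myofiber NF-κB activity change expression. The groups were aged MISR mice of 24 months (2 arrays), aged WT mice of 24 months (2 arrays) and young WT mice of 2 to 3 months (3 arrays). MISR mice carry an IκB super-repressor, which blocks NF-κB, under the muscle creatine kinase promoter, so the block lies in myofibers and not in satellite cells. The paper names commercial colonies for its young and aged C57BL/6 mice and in-house breeding for MISR mice. It mentions littermate controls for young MISR mice, but not which WT mice went on the arrays. Where the source differed, it cannot be told apart from genotype. Each array was 1 biological replicate, named here by its number in the labels, and neither the muscle taken nor the sex is given in the sources used here. The values are log2 signals from RMA, a method that corrects background, scales the arrays to 1 distribution and summarizes probes. The fast-fiber markers Ckm and Acta1 read 13.3 to 13.7 on every array. In whole tissue, fewer cells of a type and less RNA per cell cannot be told apart.

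Of the 46 genes, 44 reached the array's median signal in at least 2 arrays and were tested among 13364 genes. Psma8 and Psmb11, core isoforms known from testis and thymus, stayed below it in all arrays, at 4.24 to 4.32 and 4.99 to 5.38. Of the tested members, 42 were at or above the median in all 7 arrays. Psma5 and Psmg4 were so in only 2 and lay near the median. The plot of all tested members by array shows differences that were small on the log2 scale.

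**Figure D1:**
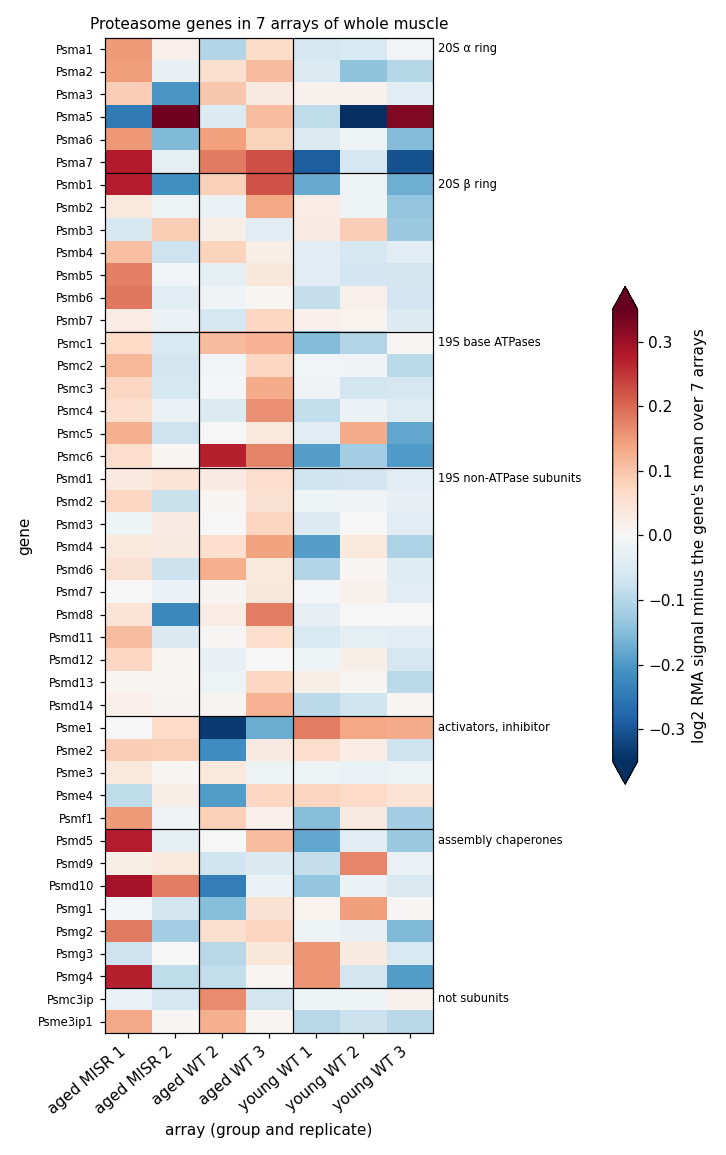
Log2 RMA signal of the 44 tested proteasome genes (rows, grouped by role) on 7 arrays (columns, aged MISR, aged WT and young WT), as the difference from the mean of that gene; the color scale ends at 0.35 in either direction. Aged MISR 1 was the highest array in 20 of the 44 genes (45.5%, beside 23.6% of all tested genes). Young WT 1 and young WT 3 were the lowest in 13 and 11 (29.5% and 25%, beside 14.5% and 20.9%).

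No proteasome gene passed the test in aged WT against young WT muscle (limma, Benjamini-Hochberg adjusted p under 0.05), a call that 0.18% of all tested genes reached. The signal was nonetheless higher in aged WT muscle for 35 of the 44 members and lower for 9. Their median log2 difference was 0.07, beside 0.0077 for all tested genes, of which 52.3% were higher. At an unadjusted p under 0.05, 4 members were higher and 1 was lower, that is 9.09% and 2.27% of them, beside 9.26% and 6.41% of all tested genes. Both aged WT arrays lay above all young WT arrays in 21 members, or 47.7%, beside 22% of all tested genes. They lay below in 1 member, or 2.27%, beside 15.7%. The methods' t-test, named there for pairs of groups but not for the arrays, gave an unadjusted p under 0.05 for 9 higher members and 1 lower member, or 22.7%, beside 14.6% of all tested genes. After Benjamini-Hochberg adjustment it called 0 members and 1 gene in all.

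The 19S base ATPases held the member with the smallest p. Psmc6, 1 of the ATPases, read 11.20 and 11.14 in aged MISR, 11.40 and 11.31 in aged WT and 10.94, 11.01 and 10.93 in young WT muscle. Every aged array was above every young array, and aged MISR lay between the WT groups. The difference of aged WT from young WT was 0.39 ± 0.06 (log2, SE; adjusted p = 0.0732, limma with Benjamini-Hochberg), or 1.31-fold. Psmc1, another of these ATPases, read 10.59 and 10.60 in aged WT and 10.33, 10.38 and 10.49 in young WT muscle, a difference of 0.20 ± 0.07 (adjusted p = 0.267, limma). The other ATPase genes Psmc2, Psmc3, Psmc4 and Psmc5 differed by 0.05 to 0.11, so that all 6 had a higher mean in aged WT muscle, with a median of 0.11. The arrays did not overlap for Psmc1, Psmc3 and Psmc6, or 50% of the 6, beside 22% of all tested genes with aged WT arrays above.

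Promoters of the members that differed most are shown as the sequence from 250 bases before to 50 bases after the start, from RefSeq (GRCm38.p6), with capitals at matches to motifs of factors linked to proteasome or NF-κB control. The motifs searched on both strands were the antioxidant response element core TGACNNNGC, bound by the NRF1 and NRF2 factors, the CCAAT box CCAAT, the cyclic AMP element TGACGTCA and the NF-κB consensus. The Psmc6 promoter (chr14:45329574-45329873, plus strand) holds 1 antioxidant response element core on its opposite strand.
Psmc6: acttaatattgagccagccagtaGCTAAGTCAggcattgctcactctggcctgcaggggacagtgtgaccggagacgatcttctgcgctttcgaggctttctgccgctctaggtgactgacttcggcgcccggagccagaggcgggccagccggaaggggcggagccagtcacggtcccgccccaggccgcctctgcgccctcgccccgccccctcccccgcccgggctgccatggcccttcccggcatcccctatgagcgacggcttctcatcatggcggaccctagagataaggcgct
In 42 promoters of 38 members with an entry, this core was found in 6, or 14.3%, beside 12.4% of all 32851 promoters of the same length. A CCAAT box was found in 15 (35.7%, beside 37.4%), the cyclic AMP element in 0 (beside 1.79%) and the NF-κB consensus in 6 (14.3%, beside 8.46%). The genes with the NF-κB consensus were Psma6, Psma7, Psmd11, Psmd12, Psmd13 and Psme4. A match describes these letters only and is not a bound site.

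The alpha ring, the outer gate of the core, was higher in aged WT muscle in all 6 tested genes, with a median of 0.13. Psma7 had the largest difference of any member. It read 9.06 and 8.75 in aged MISR, 8.97 and 9.01 in aged WT and 8.49, 8.72 and 8.48 in young WT muscle. The aged arrays of both genotypes lay above the young arrays, although aged MISR 2 exceeded young WT 2 by little. The difference of aged WT from young WT was 0.42 ± 0.11 (log2, SE), or 1.34-fold, and did not pass (adjusted p = 0.169, limma). The Psma7 promoter (RefSeq, GRCm38.p6, chr2:180042415-180042714, minus strand) holds 1 CCAAT box and 1 match to the NF-κB consensus, in capitals in this order and without overlap.
Psma7: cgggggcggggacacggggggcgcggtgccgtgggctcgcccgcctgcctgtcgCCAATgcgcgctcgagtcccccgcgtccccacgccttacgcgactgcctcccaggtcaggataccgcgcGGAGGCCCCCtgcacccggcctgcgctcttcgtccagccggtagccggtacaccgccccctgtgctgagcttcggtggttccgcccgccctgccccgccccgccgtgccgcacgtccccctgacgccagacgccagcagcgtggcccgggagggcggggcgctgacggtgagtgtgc
Psma2 and Psma6 differed by 0.18 each between aged WT and young WT muscle, with no overlap of arrays. Psma3 differed by 0.07, also without overlap, and Psma1 by 0.02 with overlap. Both aged WT arrays lay above all young WT arrays in 4 of the 6 genes (66.7%, beside 22% of all tested genes). Psma5, at 5.36 and 5.95 in aged MISR, 5.56 and 5.72 in aged WT and 5.52, 5.22 and 5.93 in young WT muscle, spread more within groups than between them.

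In the beta ring the catalytic genes differed little with age. Psmb5, the chymotrypsin-like subunit, read 12.21 and 12.02 in aged MISR, 12.00 and 12.07 in aged WT and 11.99, 11.96 and 11.97 in young WT muscle. Aged WT exceeded young WT by 0.06 ± 0.07, with no overlap of arrays but by less than the standard error. Psmb6 (caspase-like) and Psmb7 (trypsin-like) differed by 0.04 ± 0.08 and 0.01 ± 0.07, and their arrays overlapped. Their adjusted p-values lay at 0.722 to 0.945 (limma). The 95% intervals of Psmb5, Psmb6 and Psmb7 ended above at 0.23, 0.23 and 0.17, that is inside a 1.5-fold change. Psmb1, a structural beta subunit without a proteolytic site, read 10.23 and 9.74 in aged MISR, 10.04 and 10.18 in aged WT and 9.78, 9.93 and 9.78 in young WT muscle. It was higher in aged WT by 0.28 ± 0.14 (adjusted p = 0.391, limma), and its aged MISR arrays were the highest and the lowest of the 7. Psmb2, Psmb3 and Psmb4, the others of this ring, differed by 0.10, −0.004 and 0.09.

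The 11 members that encode non-ATPase subunits of the 19S cap all had a higher mean in aged WT muscle. They differed by 0.005 to 0.19, with a median of 0.075. Cap genes without a matching symbol are not among them. Both aged WT arrays lay above all young arrays in 8 of them (72.7%, beside 22% of all tested genes). Psmd4, a ubiquitin receptor, had the largest difference, with 9.01 and 9.09 in aged WT and 8.76, 8.99 and 8.84 in young WT muscle (0.19 ± 0.08, adjusted p = 0.327, limma). Psmd14, the deubiquitinase of the lid, differed by 0.12, and the scaffold subunits Psmd1 and Psmd2 by 0.10 and 0.05. Psmd12 and Psmd13 differed by 0.005 and 0.05, with overlap.

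**Figure D2:**
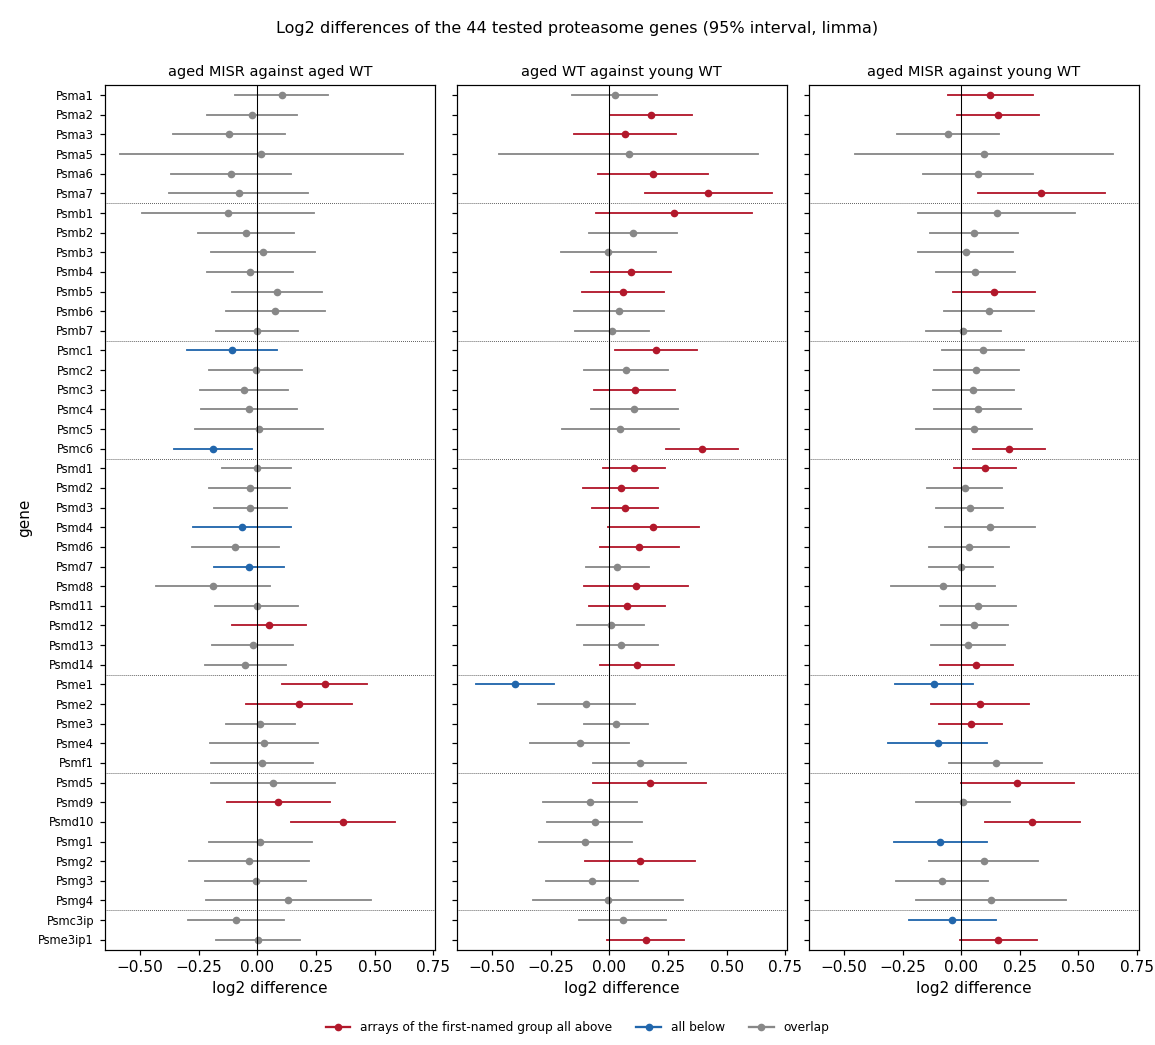
Log2 difference with its 95% interval (limma; horizontal axes) of the 44 tested proteasome genes (rows, in the order of roles used for the plot of all tested members, with dotted lines between roles) in 3 comparisons (panels); red and blue mark genes whose arrays of the first-named group all lie above or below. In aged WT against young WT muscle, 21 genes are red and 1, Psme1, is blue.

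The 4 activators and the inhibitor of the core had a median of −0.10, with a higher mean in aged WT muscle in 2 of 5. Psme1 encodes the alpha subunit of the interferon-induced activator that docks in place of the 19S cap. It read 8.08 and 8.15 in aged MISR, 7.74 and 7.91 in aged WT and 8.26, 8.21 and 8.21 in young WT muscle. No groups overlapped, with aged WT lowest, young WT highest and aged MISR between them. Aged WT was lower than young WT by 0.40 on the log2 scale (difference −0.40 ± 0.07, SE; 0.757-fold; adjusted p = 0.0839, limma with Benjamini-Hochberg). The Psme1 promoter (RefSeq, GRCm38.p6, chr14:55578244-55578543, plus strand) holds no match to the 4 motifs, and is shown without capitals.
Psme1: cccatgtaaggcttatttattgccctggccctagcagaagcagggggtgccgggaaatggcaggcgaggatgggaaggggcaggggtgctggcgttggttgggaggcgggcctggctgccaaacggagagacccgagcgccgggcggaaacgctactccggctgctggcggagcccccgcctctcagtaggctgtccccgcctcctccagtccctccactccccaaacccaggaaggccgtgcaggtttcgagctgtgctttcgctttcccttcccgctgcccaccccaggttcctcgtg
Psme2, which encodes the beta subunit of the same activator ring, read 8.26 and 8.26 in aged MISR, 7.96 and 8.21 in aged WT and 8.23, 8.20 and 8.10 in young WT muscle. Aged WT 2 was the lowest array, and aged WT 3 lay within the young range (difference −0.10 ± 0.09). Psme3, the nuclear activator, differed by 0.03 ± 0.06. Psme4, an activator linked to histone degradation, read 11.52 and 11.79 in aged WT and 11.79, 11.78 and 11.76 in young WT muscle (−0.13 ± 0.09), so that aged WT 2 alone was low. Psmf1, an inhibitor of the core, differed by 0.13 ± 0.08.

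The assembly chaperones were mixed, with a higher mean in aged WT muscle in 2 of 7 and a median of −0.06. Those 2 were Psmd5, a chaperone of the 19S base (0.17), and Psmg2, a chaperone of the alpha ring (0.13), each without overlap of arrays. They made 28.6% of the 7, beside 22% of all tested genes whose aged WT arrays lay above. Psmg1, the partner of Psmg2, differed by −0.10 ± 0.08 (SE), and Psmg3 and Psmg4 by −0.07 and −0.005. Psmd9 and Psmd10, also chaperones of the 19S base, differed by −0.08 and −0.06. The aged WT arrays did not agree for the 7 chaperones. Their median, centred on each gene's mean, was −0.086 in aged WT 2 and 0.040 in aged WT 3. It was −0.054 to −0.014 in young WT muscle. Without aged WT 2 the difference of Psmg1 was −0.00045. Of the members that are no subunits, Psme3ip1 differed by 0.16 without overlap and Psmc3ip by 0.06.

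**Figure D3:**
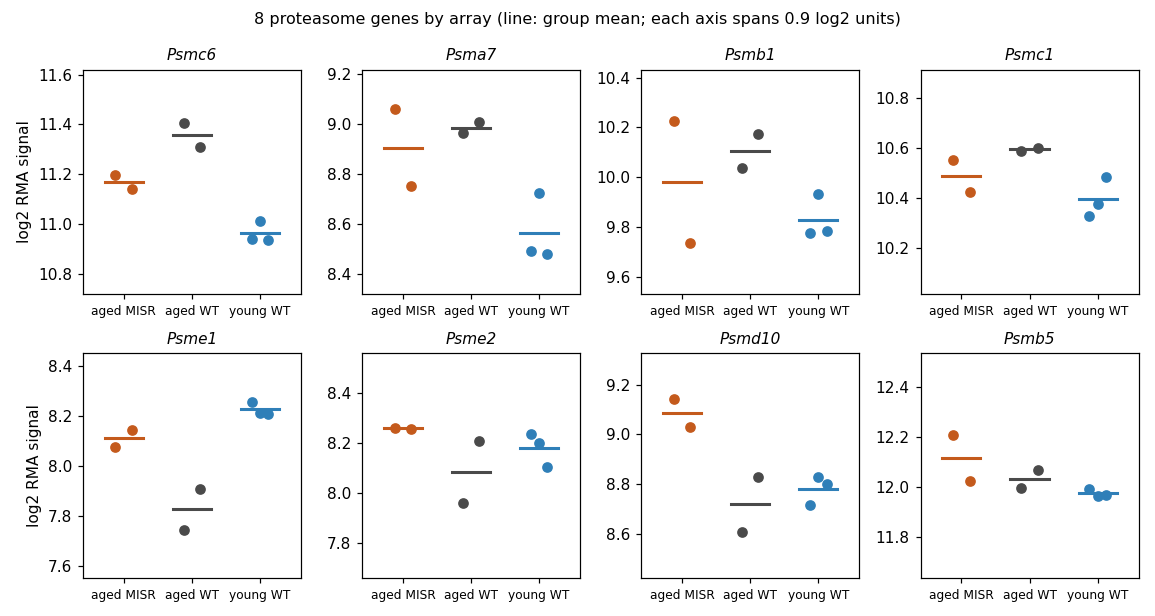
Log2 RMA signal (vertical axes, each spanning 0.9 log2 units) of 8 proteasome genes on each array (points) of aged MISR, aged WT and young WT muscle, with group means as lines. Psmc6 and Psma7 are higher and Psme1 is lower on both aged WT arrays than on any young WT array, and both aged MISR arrays of Psmd10 lie above all WT arrays.

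Aged MISR against aged WT muscle asked what the block of NF-κB in myofibers changes at the same age. No proteasome gene passed the test (limma, Benjamini-Hochberg), a call that 0.0524% of all tested genes reached. The members divided into 18 higher and 26 lower, with a median of −0.008 beside 0.013 for all tested genes. At an unadjusted p under 0.05, 2 members were higher and 1 was lower (4.55% and 2.27%), beside 8.08% and 4.09% of all tested genes. In 5 members, or 11.4%, both aged MISR arrays were above both aged WT arrays, and in 4, or 9.09%, below them, beside 20.3% and 15.4% of all tested genes. The methods' t-test gave an unadjusted p under 0.05 for 1 member (2.27%, beside 5.17% of all tested genes), and called 0 members and 3 genes in all after adjustment. The sign of the median turned when each array was centred on its median (0.03), without aged MISR 2 (0.04) and without aged WT 3 (0.01).

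Psmd10, also called gankyrin, had the largest difference between the aged genotypes. It read 9.14 and 9.03 in aged MISR, 8.61 and 8.83 in aged WT and 8.72, 8.83 and 8.80 in young WT muscle. Both aged MISR arrays were above every WT array, and the WT groups overlapped. Aged MISR exceeded aged WT by 0.37 ± 0.09 (log2, SE), or 1.29-fold (adjusted p = 0.211, limma). Against young WT the difference was 0.30 ± 0.09 (adjusted p = 0.151). The Psmd10 promoter (RefSeq, GRCm38.p6, chrX:140956662-140956961, minus strand) holds 3 CCAAT boxes, in capitals, of which the last pair reads on the opposite strand.
Psmd10: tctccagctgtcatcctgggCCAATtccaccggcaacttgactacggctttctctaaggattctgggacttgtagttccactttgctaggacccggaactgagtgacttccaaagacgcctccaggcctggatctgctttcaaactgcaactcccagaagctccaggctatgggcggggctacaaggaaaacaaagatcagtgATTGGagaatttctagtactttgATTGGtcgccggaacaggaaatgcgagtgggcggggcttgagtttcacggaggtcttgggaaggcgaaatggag

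Psme1 was the other member with an unadjusted p under 0.05 and a higher signal in aged MISR muscle, by 0.29 ± 0.08 (adjusted p = 0.226, limma), and its arrays did not overlap. Psme2 exceeded aged WT by 0.18 ± 0.10 (adjusted p = 0.505), also without overlap. Psme3 and Psme4 differed by 0.01 and 0.03. Psmc6 was the 1 member lower in aged MISR muscle at an unadjusted p under 0.05, with a difference of −0.19 ± 0.07 (adjusted p = 0.361, limma). These differences and those of aged WT from young WT rest on the same aged WT arrays, so that their opposite signs for Psme1 and Psmc6 are not independent. Psmd8, a subunit of the lid, read 12.05 and 11.78 in aged MISR and 12.03 and 12.18 in aged WT muscle (−0.19 ± 0.10, adjusted p = 0.498), and aged MISR 1 lay inside the aged WT range. Psma3 (−0.12) and Psmb1 (−0.12) also had a lower mean through aged MISR 2 alone. The catalytic genes Psmb5, Psmb6 and Psmb7 differed by 0.08, 0.08 and −0.004, with overlap. Psmg4 differed by 0.13 ± 0.15, at a signal near the array median.

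Aged MISR against young WT muscle, which differ in age, genotype and possibly source, gave no call either (limma, Benjamini-Hochberg), beside 0.591% of all tested genes. Members were higher in 36 and lower in 8, with a median of 0.06 beside 0.04 for all tested genes, of which 60.7% were higher. At an unadjusted p under 0.05, 3 members were higher (6.82%, beside 11.8% of all tested genes) and 0 were lower (beside 6.97%), and the methods' t-test counted 4 higher and 1 lower (11.4%, beside 12.8%), with 0 members and 6 genes in all after adjustment. Aged MISR arrays lay above all young arrays in 12 members, or 27.3%, and below in 4, or 9.09%, beside 24.4% and 13.6% of all tested genes. The 3 members were Psma7 (0.34 ± 0.11, adjusted p = 0.189), Psmd10 and Psmc6 (0.21 ± 0.06, adjusted p = 0.175), tested with limma. Psmd5, with 8.86 and 8.56 in aged MISR and 8.40, 8.55 and 8.46 in young WT muscle, differed by 0.24 ± 0.10 (adjusted p = 0.269), with arrays that nearly met. On the lower side, Psme1 differed by −0.12 ± 0.07, Psme4 by −0.10 ± 0.09 and Psmg1 by −0.09, each without overlap, and Psmg3 by −0.08 with overlap.

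Across arrays the members did not vary alike within a group. Aged MISR 1 was the highest array in 45.5% of the tested members, beside 23.6% of all tested genes, and the lowest in 0, beside 15.5%. Aged MISR 2 was the highest in 2 members (4.55%, beside 18.5% of all tested genes). As medians of the signal centred on each gene's mean, the members stood at 0.071 and −0.020 in aged MISR, 0.002 and 0.062 in aged WT and −0.038, −0.017 and −0.052 in young WT muscle, where all tested genes stood at −0.028 to 0.018. Both aged WT arrays and aged MISR 1 were thus above the young arrays, and aged MISR 2 lay among them. The alpha ring stood at 0.147 and −0.028 in aged MISR, 0.074 and 0.093 in aged WT and −0.055, −0.057 and −0.069 in young WT muscle. The 19S ATPases stood at 0.072 and −0.058 in aged MISR, −0.002 and 0.126 in aged WT and −0.062, −0.043 and −0.077 in young WT muscle. Aged WT 3 was highest for these ATPases, and aged MISR 2 lay among the young arrays. In the alpha ring, aged MISR 1 was highest and aged MISR 2 lay above the young arrays. The activators stood at −0.196 in aged WT 2 and at −0.018 to 0.060 in the others. Without aged MISR 1 the median difference of aged MISR from young WT was 0.02.

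**Figure D4:**
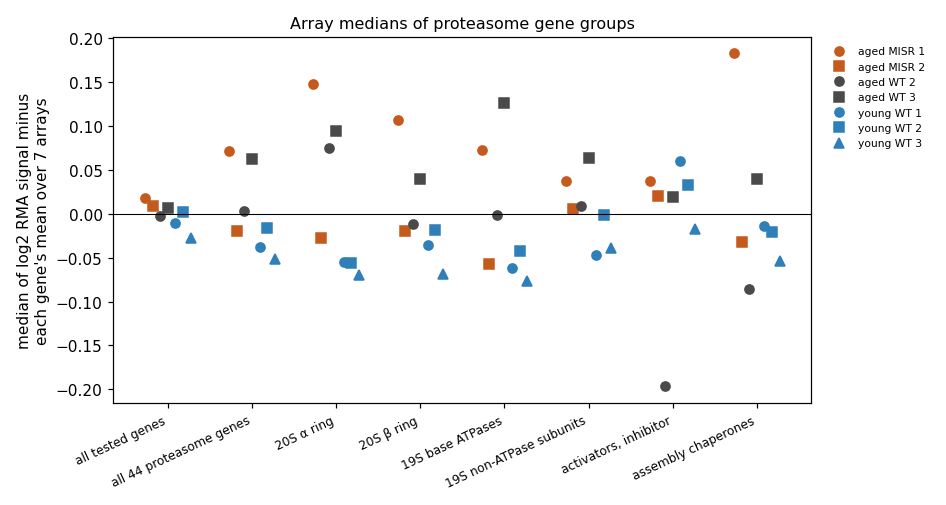
Median of the log2 RMA signal, centred on each gene's mean over 7 arrays (vertical axis), for all tested genes, the 44 proteasome genes and their roles (horizontal axis) in each array (points; color for aged MISR, aged WT and young WT, shape for the array). The proteasome genes stand at 0.071 in aged MISR 1 and at −0.020 in aged MISR 2.

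Markers of fiber type and of other cells moved with these groups and arrays. A list of 10 slow-fiber markers also held Myh2, the myosin of fast oxidative fibers. The median of this list, centred in the same way, was −0.99 and 0.07 in aged MISR, −0.13 and −0.57 in aged WT and 0.45, 0.52 and 0.47 in young WT muscle. All 10 had a lower mean in aged WT muscle than in the young group. The median of the 8 fast-fiber markers stood at −0.04 to 0.02 on all arrays, while single genes differed more. They ran from −0.32 (Myh1) to 0.13 (Mylpf) in aged WT against young WT muscle. In aged MISR against aged WT muscle they ran from −0.21 (Mylpf) to 0.28 (Myh1). Ckm, Acta1, Myh4, Tnnt3, Tnnc2 and Atp2a1 read 13.19 to 13.75, near the highest values of the arrays (14.09 to 14.12). Whether such high signals still follow the amount of RNA was not tested. The 12 tested of 14 macrophage markers stood at 0.56 and 0.41 in aged MISR, 0.04 and −0.52 in aged WT and −0.27, −0.09 and −0.12 in young WT muscle. In aged MISR 1, 7 platelet markers stood at 1.06 and in the other arrays at −0.50 to 0.28. Adipocyte markers (8 tested of 10) stood at 0.69 in aged MISR 2 and at −0.24 to −0.01 in the others. The 6 fibroblast markers stood at 0.04 and 0.29 in aged MISR, −0.59 and −0.23 in aged WT and 0.05, 0.17 and 0.05 in young WT muscle, and all 6 lay lower on both aged WT arrays than on the young arrays. The 10 neutrophil markers stood at 0.77 and −0.95 in aged MISR, 0.40 and −0.48 in aged WT and −0.10, 0.05 and 0.47 in young WT muscle. The 3 tested of 4 B and plasma cell markers stood at 1.204 in aged MISR 1 and at −0.52 to 0.04 in the others, and 1 of them, Jchain, passed the test in both comparisons with aged MISR muscle. The part of these cells in the proteasome values was not tested.

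The immune subunits, which replace the catalytic ones under interferon, were measured for comparison. Psmb10 read 8.05 and 7.98 in aged MISR, 7.72 and 7.92 in aged WT and 7.95, 7.96 and 7.94 in young WT muscle, so that aged MISR exceeded aged WT by 0.19 without overlap (adjusted p = 0.42, limma). Psmb8 and Psmb9 differed by 0.03 and 0.11 between these groups, and by −0.03 and −0.005 between aged WT and young WT muscle. In Psmb10 both aged WT arrays lay below all young WT arrays (−0.13 ± 0.08, adjusted p = 0.443, limma).

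None of the other pathway genes that were tested passed in any of the 3 comparisons (limma, Benjamini-Hochberg). Not all listed genes were tested, and of 6 ubiquitin and E1 genes only 1, Uba6, was. Of 13 listed proteasome-bound and assembly proteins 8 were tested. Of these 8, 7 had a higher mean in aged WT muscle than in the young group, with a median of 0.14. Arrays lay above in 6 (75%, beside 22% of all tested genes) and the unadjusted p was under 0.05 in 4 (50%, beside 9.26%). Pomp, the chaperone that completes the core, read 9.01 and 9.12 in aged WT and 8.68, 8.96 and 8.67 in young WT muscle (0.30 between the WT groups, adjusted p = 0.271). Its aged arrays of both genotypes were above its young arrays, as for Psma7. The cap-bound deubiquitinases Uchl5 and Usp14 differed by 0.21 and 0.17 between the WT groups. Of 10 tested genes (13 listed) of the p97 unfoldase and shuttle factors, 9 had a higher mean in aged WT muscle (median 0.10). In 2 of them, Nploc4 (0.23) and Rad23b (0.19), the unadjusted p was under 0.05 (20%, beside 9.26% of all tested genes). The 1 lower gene was Ubqln4 (−0.28, with overlap). Nfe2l1, whose product NRF1 induces proteasome genes when the complex is short, differed by 0.09, and Nfe2l2, its relative in the oxidative stress response, by −0.17. Of the muscle ubiquitin ligases, Trim63 (MuRF1) read 10.75 and 10.01 in aged MISR, 10.67 and 10.82 in aged WT and 10.15, 10.29 and 10.33 in young WT muscle (0.49 between the WT groups, adjusted p = 0.293). Fbxo32 (atrogin-1) differed by 0.19 between them. Aged MISR differed from aged WT by −0.37 in Trim63 and by 0.03 in Fbxo32, with overlap in both.

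The precision bounds what these arrays could show. The 95% intervals of 41 of 44 members lay within a 1.5-fold change in either direction for aged WT against young WT muscle, the exceptions being Psma5, Psma7 and Psmb1. The same held for 42 members in aged MISR against aged WT muscle, except for Psma5 and Psmd10, and for 42 in aged MISR against young WT muscle, except for Psma5 and Psma7. The median half-width of these intervals was 0.19, 0.20 and 0.19 on the log2 scale in the 3 comparisons. The shares within a 1.5-fold change were 93.2%, 95.5% and 95.5% of members, beside 89.1%, 87.3% and 88.2% of all tested genes. Replicates of the members had a median SD of 0.09 in aged MISR (n = 2), 0.06 in aged WT (n = 2) and 0.05 in young WT muscle (n = 3).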

How the data were processed

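RNA was extracted with Trizol and labeled with the GeneChip WT PLUS kit. The deposited values are log2 signals that the authors made from the arrays with RMA. Neither its version nor the annotation is given in the sources used here. RMA scales the probe signals of all arrays to 1 distribution, so that a shift of the whole transcriptome is not visible. The medians of the deposited values still ran from 5.86 (aged MISR 1) to 5.93 (young WT 3). Of 41345 features, 23521 had 1 gene symbol in the platform table and were kept. The 1820 with several symbols, both Psma4 features among them (shared with AY074887), were left out, as were 16004 that the table does not list. Of several features of a gene, which 3 members had, the brightest was used. A gene entered the test if it reached the array median on 2 arrays or more. Limma 3.58.1 in R 4.3.3 fitted 3 group means over 7 arrays, with Benjamini-Hochberg adjustment over 13364 genes. The steps were tested on simulated data. The members and gene lists were chosen with earlier results of these data known. Named were the 4 members with the largest positive and the 4 with the largest negative difference in each comparison, the catalytic subunits, the Psme genes and members not tested, and others by role as examples. The main fit did not pair arrays by replicate number. Same-numbered arrays of different groups correlated at −0.224 to −0.008 in their deviations from group means. With 2 arrays in each aged group these deviations mirror each other, so this check cannot exclude a pairing. Alternatives were another normalization, centring, filters, feature means, variance models, weights, arrays left out, the replicate number as a block, and the t-test that the methods name for pairs of groups but not for the arrays. The overlap counts under these alternatives, and leaving out aged MISR 1 and aged WT 2 together, were added after seeing the data. Promoters came from RefSeq (GRCm38.p6), which held no entry for 8 members. Figures were drawn with Python 3.11.15 and matplotlib 3.10.9. All deposited columns were used.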

Additional observations from a re-analysis of the deposited data

How the results depend on the processing

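No proteasome gene was called when any 1 array was left out, under either normalization alternative, any filter, feature means, a fit of only the groups compared or the replicate block. In aged WT against young WT muscle, 88 genes in all were called with a trend and robust estimation and 118 with array weights, against 24 without. Of members, 1 was called with the trend (Psmc6, adjusted p = 0.0316), 2 with array weights (Psmc6, 0.0484, and Psme1, 0.0497, where the other alternatives in limma gave 0.0316 to 0.319 and 0.0644 to 0.353), 2 at an adjusted p under 0.1 (156 of all genes), and 10 with the unadjusted t-test, which called 1 and 5 in aged MISR against aged WT and young WT muscle. The median difference of aged WT from young WT stayed positive under all alternatives, at 0.03 (without aged WT 3) to 0.10. That of aged MISR from aged WT ranged from −0.0626 to 0.0406 with 1 array left out and was −0.0951 without aged MISR 1 and aged WT 2. That of aged MISR from young WT was 0.0117 after a second quantile normalization, 0.0192 without those 2 arrays, and 0.0192 (without aged MISR 1) to 0.10 with 1 array left out. Non-overlap counts depend on the number of arrays: with 1 left out, 21 to 28 members lay above and 1 to 8 below in aged WT against young WT (22 to 36.9% and 15.7 to 31.3% of all tested genes), 5 to 23 above and 4 to 23 below in aged MISR against aged WT (20.3 to 39.1% and 15.4 to 33.8%), and 12 to 31 above and 4 to 10 below in aged MISR against young WT muscle (24.4 to 44.4% and 13.6 to 28.6%). After a second quantile normalization, 3 and 9 lay below in aged WT against young WT and aged MISR against aged WT (23.5% and 20.5% of all genes), and 7 above in aged MISR against young WT (16.1%). With arrays centred on their medians, 1 lay below in each comparison with aged MISR (10.1% and 9.32% of all genes). In aged WT against young WT muscle the count above fell from 21 to 15 after the second quantile normalization (17.7% of all genes). With centred arrays it fell to 16 (20.6% of all genes). In the fit with the replicate block the medians were 0.09, −0.03 and 0.06, and Psmg4 turned to −0.0297 in aged MISR against aged WT. With 1 array left out, values in this comparison ran from −0.0499 (without aged MISR 1) to 0.313 for Psmg4, from −0.369 to 0.121 (without aged MISR 2) for Psmb1 and from −0.267 to 0.0240 (without aged MISR 2) for Psma3. Psmg4 stood at −0.0963 without aged MISR 1 and aged WT 2. In aged WT against young WT muscle, Psme4 ran from −0.261 to 0.00727 and Psme2 from −0.222 to 0.0271, with the highest value of each without aged WT 2, alone or together with aged MISR 1. The cause was not tested. The number of arrays and, for Psma5 and Psmg4, a signal near the array median limit the precision.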
